A study of Mus musculus with 18 samples.

Results

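Of 18 RNA-seq libraries made from CD45-positive cells of mouse aorta and carotid arteries, 3 held few transcripts of both Cx3cr1 and Itgax, the genes behind the reporters by which the cells were sorted, and the question here is which vessel leukocytes those libraries held. The 3 low libraries are labelled DP replicate 4, DP replicate 5 and DN replicate 1. They are set against 4 libraries that held many transcripts of both genes, labelled DP replicates 1 and 2 and DN replicates 3 and 6. The libraries were chosen from their measured counts of these 2 genes, whatever their labels say, so low against high is a description with no test, and each low library is reported on its own because their cell mixes differ.

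The mice were male and female C57BL/6 of the genotype Apoe-/- Cx3cr1GFP Cd11cYFP, 7 months old, of which they had spent 5 months on a Western diet. Loss of Apoe and this diet give mice atherosclerosis, and every library carries both and both reporters, and no vessel without them was analysed here. Live cells that stained for CD45 and not for the dead-cell dye 7AAD were sorted by fluorescence into DP (positive for both reporters, 4 libraries), DN (negative for both, 3 libraries), GFP (GFP alone, 6 libraries) and YFP (YFP alone, 5 libraries). The labels do not say how many copies of each reporter the mice carried, whether mice were pooled, or whether replicates came from separate mice.

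Cx3cr1 encodes the receptor for fractalkine and is carried by monocytes, many tissue macrophages and some lymphocytes. Itgax encodes the integrin subunit CD11c of dendritic cells and of many macrophages, including those of plaques. Neutrophils, eosinophils, mast cells and most resting T and B cells make little of either, and CD45, the product of Ptprc, is shared by all of these leukocytes.

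Cx3cr1 (mm10 chromosome 9, 119901616 to 120069879) stood at 9.43 CPM in the library labelled DP 4, 0.427 CPM in that labelled DP 5 and 4.09 CPM in DN 1, against 92.7, 118, 142 and 134 CPM in the 4 high libraries, which are given throughout in the order DP 1, DP 2, DN 3 and DN 6. CPM are counts relative to a library size scaled by TMM, a method that levels libraries on the bulk of their genes. Itgax (chromosome 7, 128129547 to 128150657) stood at 38.6 CPM in the library labelled DP 4, 47.8 CPM in that labelled DP 5 and 11.4 CPM in DN 1, against 456, 311, 332 and 297 CPM in the high libraries. The low and the high libraries did not overlap for either gene, which is what the choice required. In DP 5 the Cx3cr1 value rested on 4 counts, with an exact Poisson interval of 0.116 to 1.09 CPM at 95%, which covers counting error only. Of the libraries outside the choice, YFP 1 lay inside the span of the low libraries in Cx3cr1, at 0.93 CPM, but held 174.6 CPM of Itgax. YFP 6 came nearest to them in Itgax at 89.6 CPM but held 104.5 CPM of Cx3cr1. The 6 GFP libraries held 80.9 to 165 CPM of Cx3cr1 and 107 to 191 CPM of Itgax.

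**Figure D1:**
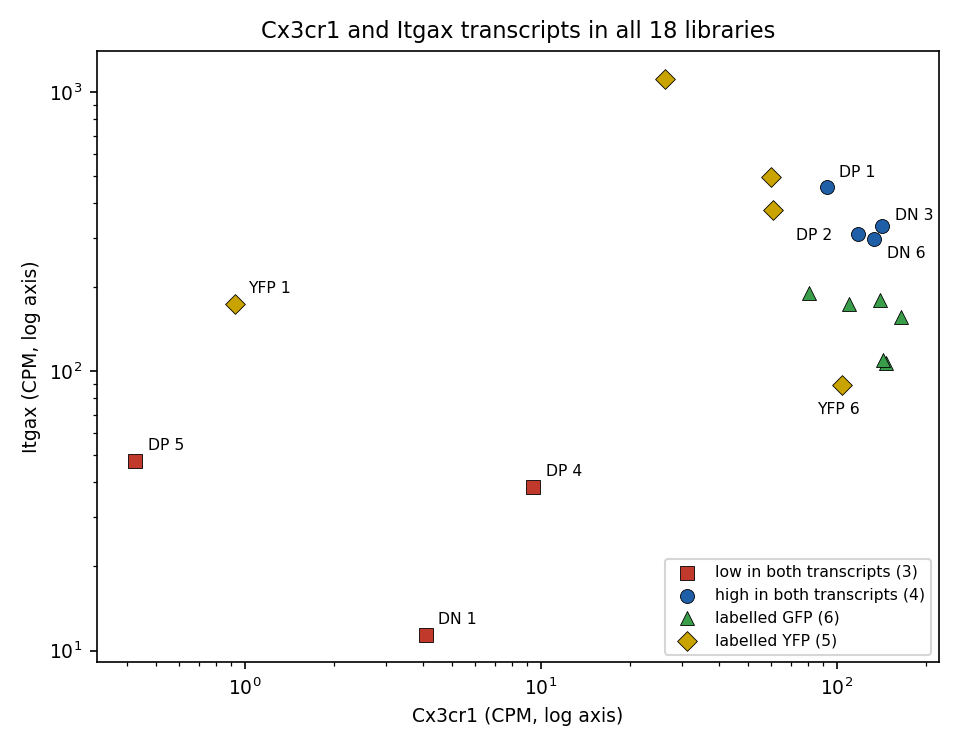
Cx3cr1 (horizontal, CPM, log axis) against Itgax (vertical, CPM, log axis) in each of the 18 libraries, with 1 symbol per library. The 3 low libraries lie at the lower left, from 0.427 to 9.43 CPM of Cx3cr1 and 11.4 to 47.8 CPM of Itgax, and the 4 high libraries at the upper right, from 92.7 to 142 CPM of Cx3cr1 and 297 to 456 CPM of Itgax.

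Of these 7 libraries, 4 went against their sort labels. Libraries labelled DP 4 and DP 5, for cells positive for both reporters, were low, and those labelled DN 3 and DN 6, for cells negative for both, were high. Whether their cells were sorted as labelled was not tested. DN 1, DP 1 and DP 2 fitted their labels. The names DP 4, DP 5, DN 3 and DN 6 are used below as labels only. Transcripts of the fluorescent proteins were not analysed here. Ptprc itself was present in all, at 543 CPM in the library labelled DP 4, 534 CPM in that labelled DP 5 and 783 CPM in DN 1, against 833, 537, 1248 and 486 CPM in the high libraries, with the low libraries inside the range of the high ones. Reads were also assigned to Apoe, the gene deleted in these mice, at 15.6 CPM in the library labelled DP 4, 1.81 CPM in that labelled DP 5 and 7.42 CPM in DN 1, against 17.8, 24.7, 16.9 and 38.8 CPM in the high libraries.

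Depth and library make-up differed among these 7. Total counts were 19436572 in the library labelled DP 4, 17601365 in that labelled DP 5 and 24723544 in DN 1, against 9790946 to 15643933 in the high libraries (289166 to 27742113 over all 18). Thinned to 9790946 counts each, the low libraries detected 17705, 15240 and 21124 genes in the same order, and the high ones 14077 to 21149. Olfactory and vomeronasal receptor genes were detected in 436, 323 and 1191 of 1457 cases in DP 4, DP 5 and DN 1, against 53 to 933 in the high libraries. TMM multiplied library sizes by 1.24 in DP 4, 0.533 in DP 5 and 1.75 in DN 1, so against scaling by total count it lifts every value of DP 5 and lowers every value of DN 1. Over the genes kept by a filter on low counts, the median log2 difference from the median of the high libraries was 0.02 in DP 4, -0.21 in DP 5 and 0.18 in DN 1 with TMM, and 0.15, -0.51 and 0.67 with total-count scaling. The library labelled DP 5 also held little of many genes that nearly all others held. Of 1218 genes at 50 CPM or more in every other library but YFP 6, 65 were under 5 CPM in DP 5, among them Rela and Vav1, against 1 gene of 1226 in DN 1 and 0 in DP 4 and in the high libraries. Elsewhere YFP 5 had 34 of 1165 such genes, YFP 1 had 1 and the other GFP and YFP libraries examined had 0. A value at or near 0 in DP 5 therefore does not show that its cells lacked the transcript. Libraries numbered 1 or 2 and those numbered 3 to 6 also differed over the series in the genes they detected, and each low library is compared with both kinds.

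A gene was counted as above when its log2(CPM + 1) exceeded the highest of the 4 high libraries by at least 2, which is 4-fold, and as below when it lay under the lowest of them by as much. Among all 23337 genes the library labelled DP 4 had 574 above (2.46%) and 99 below (0.424%). The library labelled DP 5 had 1569 above (6.72%) and 3089 below (13.2%), and DN 1 had 403 above (1.73%) and 442 below (1.89%). At least 50.9% of the genes above in each passed in that low library alone, with 292 of the genes above in DP 4 alone, 1368 in DP 5 alone and 223 in DN 1 alone. DP 4 and DN 1 shared 158 genes above, 27.5% of those of DP 4 and 39.2% of those of DN 1. DP 4 and DP 5 shared 179, which is 31.2% of the genes of DP 4 and 11.4% of those of DP 5. DP 5 and DN 1 shared 77, being 4.91% of the genes of DP 5 and 19.1% of those of DN 1. All 3 held 55 genes above (0.236%) and 42 below (0.18%). With total-count scaling the split of DP 5 was 647 above and 3641 below, and that of DN 1 665 above and 233 below, so these counts depend on the scaling, whereas DP 4 had 709 and 75.

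**Figure D2:**
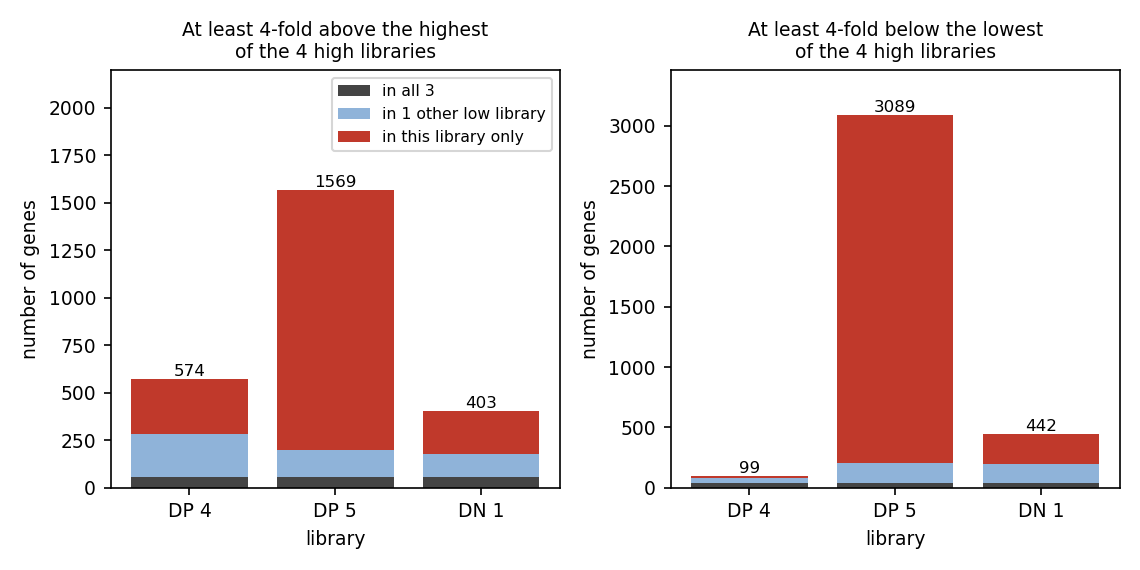
Number of genes (vertical) at least 4-fold above the highest (left panel) or below the lowest (right panel) of the 4 high libraries, for each low library (horizontal), with the bar split into genes found in all 3 low libraries, in 1 other low library or in that library only. The library labelled DP 5 has the tallest bars, 1569 above and 3089 below, mostly genes found in it alone.

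Neutrophil genes were among the genes above in all 3 low libraries. S100a8 and S100a9 (chromosome 3, 90692632 to 90695721) encode the paired calcium-binding proteins that fill the neutrophil cytosol. S100a8 reached 262 CPM in the library labelled DP 4, 5333 CPM in that labelled DP 5 and 411 CPM in DN 1, against 4.08, 2.93, 9.97 and 13.7 CPM in the high libraries. S100a9 reached 322 CPM in the library labelled DP 4, 4104 CPM in that labelled DP 5 and 558 CPM in DN 1, against 3.33, 5.53, 13.6 and 14.3 CPM in the high libraries. All 3 low libraries lay above all 4 high ones, DP 5 highest by far. G0s2, which inhibits the lipase that breaks down stored fat and is abundant in neutrophils, reached 238 CPM in the library labelled DP 4, 4901 CPM in that labelled DP 5 and 196 CPM in DN 1, against 2.91, 4.72, 6.52 and 9.54 CPM in the high libraries. Mmp9, the gelatinase of the neutrophil's tertiary granules, stood at 321 CPM in the library labelled DP 4, 483 CPM in that labelled DP 5 and 236 CPM in DN 1, against 5.07, 6.10, 26.6 and 11.7 CPM in the high libraries. For Mmp9 the 3 low libraries were close to each other and apart from the rest.

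Of the 55 shared genes, 5 were among the 15 matched neutrophil genes (S100a8, S100a9, Lcn2, Mmp9 and Retnlg), and 3 among the 16 T cell genes (Cd2, Cd28 and Cd247, which encode an adhesion molecule, a costimulatory receptor and the zeta chain of the antigen receptor). Ly6c2, a surface protein of classical monocytes, Hdc, which makes histamine, and Nkg7, a granule protein of cytotoxic cells, were also listed genes among the 55. Ptprcap, a partner of CD45 in lymphocytes, Ikzf3, a transcription factor of lymphocytes, Sept1, Rnf125, Cd55 and Chi3l1 were also among the 10 with the largest shared difference. Chi3l1, a secreted chitinase-like protein, held 38.0 CPM in the library labelled DP 4, 90.8 CPM in that labelled DP 5 and 62.3 CPM in DN 1, against 0.915 to 2.20 CPM in the high libraries. Set against all 14 other libraries but YFP 6 instead of the 4 high ones, 6 genes were above in all 3, namely G0s2, Mmp9, Il1f9, Mrgpra2b, Sytl1 and the predicted gene Gm10872, and none below, a choice of libraries made after the data were seen. Il1f9, an interleukin-1 family cytokine, stood at 188 CPM in DP 4, 205 CPM in DP 5 and 162 CPM in DN 1, against at most 27.5 CPM in those 14.

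Of the 42 genes below in all 3, Dcstamp, Cd207 and Plau had the largest shared deficits. Dcstamp (chromosome 15, 39745930 to 39760938), which encodes a membrane protein needed for the fusion of osteoclasts and macrophages, stood at 1.91 CPM in the library labelled DP 4, 1.60 CPM in that labelled DP 5 and 0.809 CPM in DN 1, against 184, 265, 241 and 139 CPM in the high libraries. Cd207, which encodes langerin, a lectin of Langerhans cells and some dendritic cells, stood at 0.166 CPM in the library labelled DP 4, 0.320 CPM in that labelled DP 5 and 0.532 CPM in DN 1, against 49.5, 43.4, 59.5 and 46.3 CPM in the high libraries. Plau, the urokinase that activates plasminogen, stood at 0.0831 CPM in the library labelled DP 4, 1.07 CPM in that labelled DP 5 and 1.92 CPM in DN 1, against 53.0, 37.0, 46.8 and 27.0 CPM in the high libraries. Each of these low values was under 2 CPM, where 3 counts are 0.125 CPM in DP 4, 0.320 CPM in DP 5 and 0.0694 CPM in DN 1, so that most of them rested on more counts than that. In GFP libraries Dcstamp stood at 35.1 to 160.3 CPM, Cd207 at 10.4 to 93.4 CPM and Plau at 28.9 to 56.2 CPM. The YFP libraries spread widely, from 2.19 to 325 CPM of Dcstamp, 1.27 to 156 CPM of Cd207 and 3.50 to 63.1 CPM of Plau, with YFP 1 or YFP 5 lowest. Cx3cr1 itself, Zfp618, Il12b (a subunit of interleukin-12 and interleukin-23), Pdgfb (a growth factor for mural cells), Zmynd15, Rnf180 and Procr (the endothelial protein C receptor) completed the 10 with the largest shared deficit. The cDC1 gene Cadm1 and the chemokine gene Ccl22 of the cDC2 list were the 2 genes of the cell type lists among the 42, which also held Itgax.

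DN 1 was the low library with lymphocyte genes throughout. T cell genes were above in 14 of 16, against 1.73% of all genes, all but Cd5 and Trat1, and B cell genes in 11 of 12, all but Pax5. NK and ILC2 genes were above in 12 of 16. No member of these 3 lists was below.

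Cd3e, a chain of the T cell antigen receptor complex, stood at 279 CPM in DN 1, against 1.58, 1.38, 3.08 and 1.03 CPM in the high libraries. Lck, the kinase that starts antigen receptor signalling, stood at 387 CPM in DN 1, against 3.91, 3.74, 5.13 and 2.35 CPM in the high libraries. Both coreceptors were present in DN 1, Cd4 at 65.2 CPM and Cd8a at 77.4 CPM, against 3.16 to 5.86 and 0.294 to 2.13 CPM in the high libraries. Icos, an inducible costimulatory receptor, stood at 310.3 CPM in DN 1, against 0.660 to 4.10 CPM in the high libraries. Pdcd1, the inhibitory receptor PD-1, stood at 439.7 CPM in DN 1, against 3.23 to 5.57 CPM in the high libraries. Gimap3, of a family of lymphocyte survival genes, Sh2d2a, a T cell adaptor, Faim3, the receptor for IgM, and Cd163l1, a scavenger-type receptor that in mouse is known from gamma-delta T cells, were among its 10 largest differences, with Cd163l1 at 477 CPM in DN 1, against 0.587 to 6.45 CPM in the high libraries.

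Cd79a (chromosome 7, 24897381 to 24902197), a chain of the B cell receptor complex, stood at 449 CPM in DN 1, against 5.57, 3.42, 0.366 and 0.147 CPM in the high libraries. Cr2 and Fcer2a, receptors of mature B cells, stood at 63.3 and 133 CPM in DN 1, against at most 1.95 and 2.16 CPM in the high libraries. Igj, which links antibody chains, held 519 CPM in DN 1, against 19.2, 14.1, 27.3 and 0.0734 CPM in the high libraries, while it had 0 counts in both low DP libraries. Among the other libraries YFP 1 held more Igj than DN 1, at 1749.8 CPM, with 178 CPM of Cd79a and a B cell list level of 5.12, against 6.77 in DN 1. Of the 7 matched plasma cell genes Igj alone was above by the fold in DN 1. With Igj counted, 4 of the 7 exceeded every high library and 2 lay under them all. Xbp1 was one of those 2, at 153 CPM in DN 1, against 166 to 372 CPM in the high libraries. The level of this list was 4.97 in DN 1, against 3.54 to 4.19 in the high libraries and 6.49 in YFP 1.

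All 9 cytotoxic and NK genes of the NK and ILC2 list were above in DN 1, a split of the list made after its values were seen. They summed to 513 CPM in DN 1, against 5.28 to 21.8 CPM in the high libraries, but the sum was also 323 CPM in GFP 1 and 161 CPM in GFP 2. Nkg7 was at 226 CPM, Gzmb (granzyme B) at 94.4 CPM, Prf1 (perforin) at 33.5 CPM and Ncr1, an activating receptor of NK cells, at 21.4 CPM in DN 1, each against at most 1.91 CPM in the high libraries. Il5, a cytokine that ILC2 and helper T cells make for eosinophils, stood at 29.9 CPM in DN 1, against at most 0.895 CPM in the high libraries and in no other of the 18 libraries above 2.57 CPM.

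The same library was low in macrophage genes. All 12 core macrophage genes were below in DN 1, against 1.89% of all genes, and 10 of 12 foamy macrophage genes. C1qb, a chain of the first complement component made by macrophages, stood at 149 CPM in DN 1, against 2728, 3775, 2899 and 8669 CPM in the high libraries. Csf1r, the receptor for macrophage growth factor, stood at 150.4 CPM in DN 1, against 2322 to 4675 CPM in the high libraries. Mmp12, the macrophage elastase, stood at 4.58 CPM in DN 1, against 977, 1010.3, 1289 and 2182 CPM in the high libraries. Trem2, a lipid-sensing receptor of foamy macrophages, stood at 6.98 CPM in DN 1, against 246 to 902 CPM in the high libraries. Cxcl16, a chemokine of macrophages, Gdf15, a stress cytokine, and Flrt3, an adhesion protein, were also among its 10 largest deficits, with Cxcl16 at 26.9 CPM in DN 1, against 1762 to 2966 CPM in the high libraries. These transcripts remained detectable, and Lyz2, the macrophage lysozyme, held 788 CPM in DN 1, against 7233 to 25853 CPM in the high libraries. In bulk libraries such as these, fewer cells of a type and less of the transcript per cell cannot be told apart. With total-count scaling 11 core macrophage and 7 foamy genes were below, and 16 T cell and 12 B cell genes above.

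MHC class II genes, which present antigen and are shared by B cells, dendritic cells and many macrophages, gave no member below by the fold and 2 above in DN 1, although 6 of the 10 lay under every high library. The level of this list, the mean of log2(CPM + 1) over its 10 members, was 8.18 in DN 1, against 7.71 to 8.51 in the high libraries. Their summed level was lower, at 9401 CPM in DN 1, against 21258 to 32051 CPM in the high libraries, with Cd74, the invariant chain, at 5082 CPM, against 11337 to 18369.5 CPM in the high libraries, and H2-Ab1, a chain of the I-A molecule, at 1897 CPM, against 5331 to 8208 CPM in the high libraries. H2-Ob, a B cell member of the list, was above, at 225 CPM in DN 1, against 12.0 to 26.7 CPM in the high libraries. Ccr7, the homing receptor of mature dendritic cells and of naive lymphocytes, stood at 461 CPM in DN 1, against 384, 295, 116 and 30.9 CPM in the high libraries, while the dendritic cell genes Flt3 and Ccl22 stood at 2.03 and 0.416 CPM in DN 1, against 7.70 to 31.9 and 27.8 to 115 CPM in the high libraries.

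Neutrophil genes were above in 8 of 15 in DN 1. Ngp, a protein of the secondary granules, stood at 220.4 CPM in DN 1, against 1.66, 1.06, 22.5 and 7.63 CPM in the high libraries. Ltf, lactoferrin of the same granules, stood at 123 CPM in DN 1, against 1.22 to 8.72 CPM in the high libraries. The primary granule genes Mpo, Elane and Prtn3 were each under 1 CPM in DN 1 (0.902, 0.231 and 0.694 CPM), against at most 2.52 CPM in the high libraries. Of the 17 eosinophil, mast cell and basophil genes only Hdc was above in DN 1, at 369 CPM, against 8.82, 6.51, 28.3 and 6.60 CPM in the high libraries. Fibroblast, smooth muscle and endothelial genes gave 0 of 13, 0 of 13 and 0 of 14 above in DN 1.

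**Figure D3:**
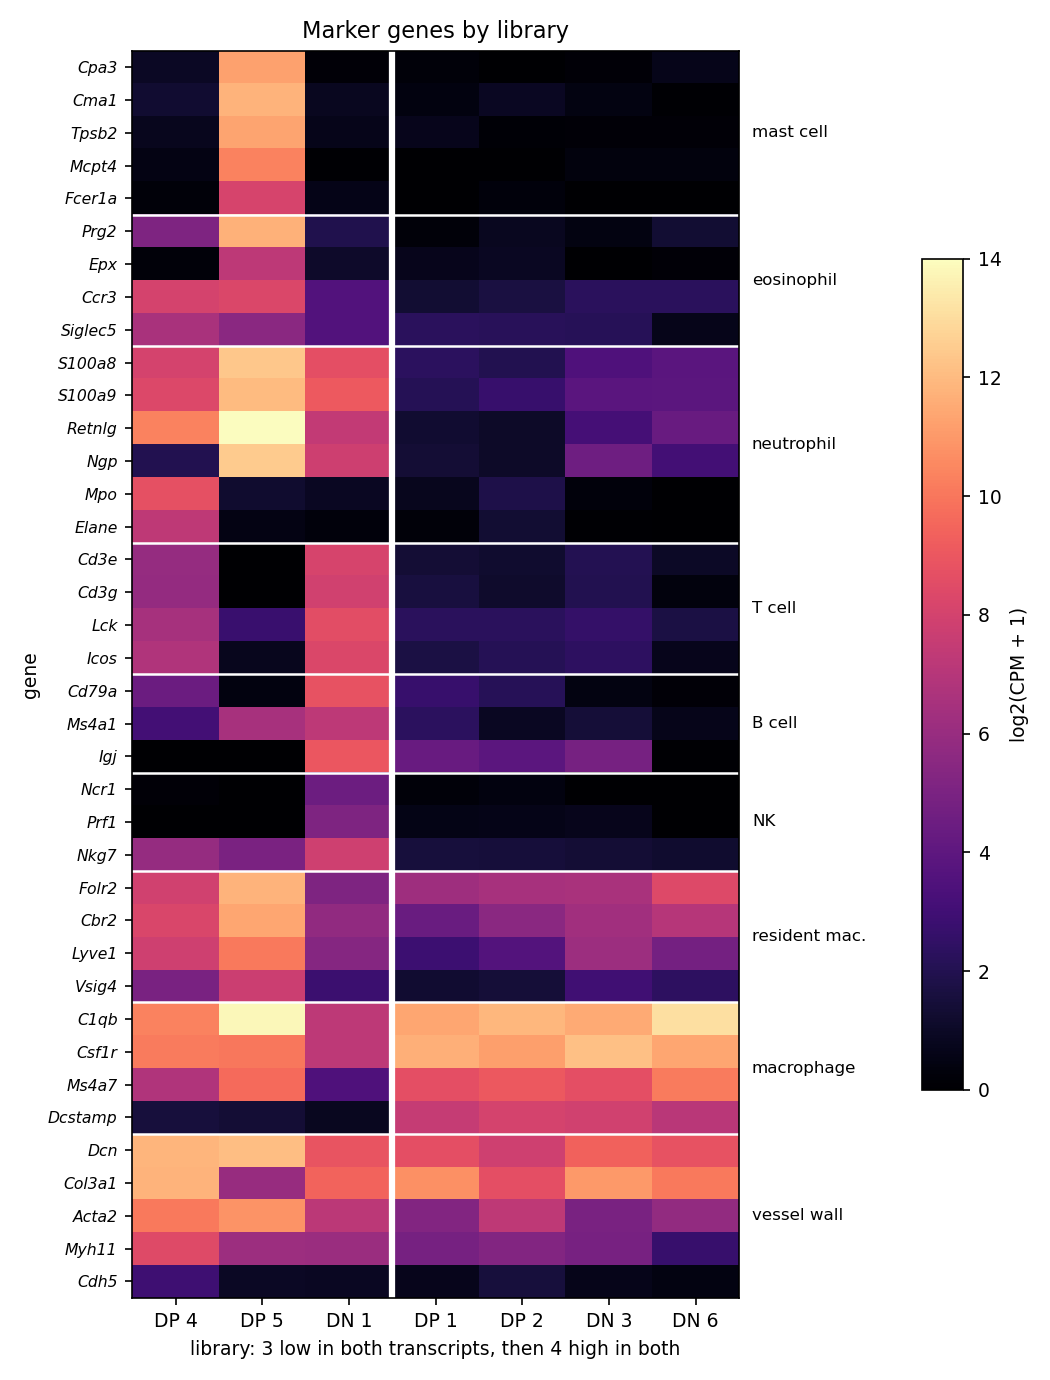
log2(CPM + 1) (colour) of marker genes (rows) in the 3 low libraries (left) and the 4 high libraries (right of the white line), grouped by the cell type that the genes mark. The T and B cell rows are bright in DN 1, the mast cell rows in the library labelled DP 5 alone, and Mpo and Elane in that labelled DP 4 alone.

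The library labelled DP 5 held genes of mast cells, eosinophils and neutrophils beside those of macrophages. Of the 17 eosinophil, mast cell and basophil genes 13 were above in DP 5, against 6.72% of all genes, and this count was 13 under each scaling tried. Cma1 (chymase) reached 3536 CPM, Tpsb2 (tryptase) 2634 CPM, Cpa3 (carboxypeptidase of mast cell granules) 2432 CPM and Mcpt4 (another mast cell protease) 1315 CPM in DP 5. Each was at most 0.895 CPM in the high libraries and at most 1.45 CPM in the other 2 low ones. Fcer1a, the IgE-binding chain of the mast cell receptor, stood at 273 CPM in DP 5, against at most 0.244 CPM in the high libraries. Not every mast cell gene was there. Ms4a2, the receptor's beta chain, had 0 counts in DP 5 and at most 0.0814 CPM in the high libraries, and Kit, the growth factor receptor of mast cells, stood at 3.52 CPM in DP 5, against 0.0734 to 29.8 CPM in the high libraries. Mcpt8 of basophils had 0 counts in DP 5. The 8 mast cell genes summed to 10330.3 CPM in DP 5, against 1.25 to 31.4 CPM in the high libraries, 23.8 to 197 CPM in the GFP and 5.35 to 325 CPM in the YFP libraries.

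All 5 eosinophil genes were above in DP 5. Prg2, the major basic protein of eosinophil granules, reached 3374 CPM in DP 5, against 0.166 to 1.54 CPM in the high libraries, and Epx, eosinophil peroxidase, 150.1 CPM, against 0 to 0.895 CPM in the high libraries. Ccr3, the eotaxin receptor, stood at 309 CPM in DP 5, against 1.50 to 3.81 CPM in the high libraries. Ear1, an eosinophil ribonuclease with near-identical copies that counting may not keep apart, reached 1289.5 CPM in DP 5, against at most 1.54 CPM in the high libraries. Prg2 and Ear1 were far lower in DP 4 at 33.8 and 3.32 CPM, although Ccr3 was nearly as high there.

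Of the low and high libraries, DP 5 alone was high in the mast cell genes Cpa3 and Fcer1a. Their promoters are shown, since GATA factors are known regulators of mast cell genes. They are RefSeq windows of 300 bases on build GRCm38.p6, from 250 bases before the gene's start to 50 after it, on the gene's strand, and capitals mark AGATAA, the GATA motif, or its reverse complement.
Cpa3, chr3:20242132-20242431, minus strand: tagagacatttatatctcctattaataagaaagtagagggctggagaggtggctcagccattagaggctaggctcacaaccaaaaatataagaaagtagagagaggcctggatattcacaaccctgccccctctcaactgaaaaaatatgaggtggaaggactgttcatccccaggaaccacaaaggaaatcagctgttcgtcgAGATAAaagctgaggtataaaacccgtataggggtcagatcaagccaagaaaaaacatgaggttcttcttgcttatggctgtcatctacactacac
Fcer1a, chr1:173227180-173227479, minus strand: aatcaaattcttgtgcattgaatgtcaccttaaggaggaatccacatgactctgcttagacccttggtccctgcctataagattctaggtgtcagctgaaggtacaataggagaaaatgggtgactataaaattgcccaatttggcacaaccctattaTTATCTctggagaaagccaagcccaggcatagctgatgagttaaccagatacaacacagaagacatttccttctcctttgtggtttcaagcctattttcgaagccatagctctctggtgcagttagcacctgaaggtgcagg
AGATAA on either strand was in the window of 6 of the 14 eosinophil, mast cell and basophil genes for which RefSeq gave one (Ccr3, Cpa3, Fcer1a, Il5ra, Ms4a2 and Prss34), against 12.7% of 27018 genes. Ms4a2 holds the letters and had 0 counts, so a match is a description of the window and not of binding.

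Neutrophil genes were above in 10 of 15 in DP 5, again under each scaling. Retnlg, a resistin-like secreted protein of neutrophils, reached 21407 CPM in DP 5, against 1.41, 1.06, 7.70 and 19.1 CPM in the high libraries, and was 1.14% of all counts there. Ngp reached 5742 CPM, Lcn2 (lipocalin of secondary granules) 1475 CPM and Camp (the antimicrobial peptide cathelicidin) 407 CPM in DP 5. In the high libraries they were at most 22.5, 12.1 and 4.10 CPM. All 6 secondary and tertiary granule genes were above in DP 5, with a sum of 8467.5 CPM against 14.8 to 84.2 CPM in the high libraries. Of the 3 primary granule genes only Prtn3 was above, at 23.6 CPM, against at most 0.587 CPM in the high libraries, while Mpo and Elane were at 1.39 and 0.427 CPM in DP 5.

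The promoters of Ngp and Retnlg, from the same source, are shown because C/EBP factors are known to act on neutrophil granule genes. Capitals mark TTGCNNAA, a C/EBP motif, or its reverse complement.
Ngp, chr9:110419558-110419857, plus strand: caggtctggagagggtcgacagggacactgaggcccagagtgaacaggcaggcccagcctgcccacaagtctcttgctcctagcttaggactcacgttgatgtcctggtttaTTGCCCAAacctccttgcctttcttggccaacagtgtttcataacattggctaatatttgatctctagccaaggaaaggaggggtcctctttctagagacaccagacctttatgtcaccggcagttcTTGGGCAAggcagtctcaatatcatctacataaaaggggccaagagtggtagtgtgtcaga
Retnlg, chr16:48872358-48872657, plus strand: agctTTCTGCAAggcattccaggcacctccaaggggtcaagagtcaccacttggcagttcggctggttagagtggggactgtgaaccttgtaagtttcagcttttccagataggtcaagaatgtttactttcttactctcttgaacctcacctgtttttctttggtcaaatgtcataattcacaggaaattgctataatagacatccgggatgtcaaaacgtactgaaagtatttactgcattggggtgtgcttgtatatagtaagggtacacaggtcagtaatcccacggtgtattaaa
These letters were in the window of 6 of 13 neutrophil genes with a RefSeq window (Lcn2, Ltf, Mmp8, Ngp, Retnlg and S100a9), against 12.2% of 27018 genes. For B cell genes the EBF motif CCCNNGGG was in 2 of 8 windows, against 15.4% of genes, and for core macrophage genes the ETS motif GAGGAAGT was in 1 of 7, against 3.69% of genes.

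Macrophage transcripts were not scarce in DP 5. None of the 12 core macrophage genes was below and the level of the list was 10.70, against 9.99 to 10.91 in the high libraries, though 2 of 12 were below with total-count scaling. C1qb stood at 14378 CPM in DP 5, against 2728, 3775, 2899 and 8669 CPM in the high libraries, and Csf1r at 1067 CPM, against 2322 to 4675 CPM in the high libraries. Genes of resident vascular macrophages were above in 5 of 10 in DP 5, under each scaling but that of DESeq2, which gave 6. Folr2, a folate receptor of resident macrophages, reached 3526 CPM in DP 5, against 72.5, 92.1, 97.0 and 332 CPM in the high libraries. Cbr2, a carbonyl reductase, reached 2677 CPM in DP 5, against 20.5, 45.4, 78.3 and 127 CPM in the high libraries. Lyve1, a hyaluronan receptor of adventitial macrophages, reached 1099 CPM in DP 5, against 6.41, 11.6, 69.8 and 26.6 CPM in the high libraries. Vsig4, a complement receptor, and Timd4, a receptor for dying cells, stood at 215 and 70.0 CPM in DP 5, against at most 6.89 and 7.48 CPM in the high libraries.

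Genes of alternative activation, the macrophage state induced by interleukin-4, were above in 4 of 9 in DP 5 and below in 1, the receptor gene Il4ra. Retnla reached 8716 CPM in DP 5, against 7.32, 10.6, 24.1 and 127 CPM in the high libraries and 208 to 15214 CPM in the YFP libraries. Chi3l3, a chitinase-like protein, and Ccl24, an eotaxin that draws eosinophils, stood at 2603 and 642 CPM in DP 5, against at most 159.7 and 4.11 CPM in the high libraries. Alox15, a lipoxygenase that eosinophils and resident macrophages share, reached 1732 CPM in DP 5, against 0.749 to 6.01 CPM in the high libraries. Arg1, the arginase of that state, stood at 0.107 CPM in DP 5, against 2.25 to 24.4 CPM in the high libraries. Serpinb2, a protease inhibitor of activated monocytes, reached 11142 CPM in DP 5, against 0.333, 0.407, 30.3 and 1.91 CPM in the high libraries.

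T and B cell genes gave a mixed picture in DP 5. T cell genes were above in 3 of 16 and B cell genes in 2 of 12, against 6.72% of all genes. In each list 1 member was below. Cd3e and Cd3g had 0 counts, and Cd79a stood at 0.320 CPM in DP 5, against 0.147 to 5.57 CPM in the high libraries. By contrast Cd247, Ms4a1 and Cd79b stood at 77.2, 90.6 and 90.2 CPM in DP 5, against at most 1.98, 3.99 and 11.9 CPM in the high libraries. Proliferation genes were below in 7 of 12 in DP 5, against 13.2% of all genes, with Cdk1, the kinase that drives mitosis, at 0.107 CPM, against 9.97 to 19.4 CPM in the high libraries. The deficits of this library overlap with the genes it held under 5 CPM and nearly all others at 50 CPM or more. Vav1, a signalling protein of all blood cells, stood at 2.56 CPM in DP 5, against 358 to 657 CPM in the high libraries, and Myc, a growth regulator, at 1.17 CPM, against 145 to 181 CPM in the high libraries. Fam129b, Gna12, Cdk18, Rcan1, Fam46c, Angptl2, Pdgfb and Rasal3 were the other 8 of its 10 largest deficits, from 0.213 to 4.05 CPM in DP 5. Which deficits belong to its cells and which to the library was not tested.

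Among genes of the vessel wall, some were above and others below in DP 5. Dcn, the matrix proteoglycan decorin of fibroblasts, reached 4439 CPM in DP 5, against 404, 226, 677 and 462 CPM in the high libraries. Col3a1, a fibrillar collagen of the same cells, stood at 61.8 CPM in DP 5, against 1717, 399, 2085 and 1091 CPM in the high libraries, so that the fibroblast list was above in 5 and below in 3 of 13. With total-count scaling the list was above in 1. Acta2, smooth muscle actin, reached 1823 CPM in DP 5, against 38.1, 156, 29.5 and 55.3 CPM in the high libraries, and 6 of 13 smooth muscle genes were above.

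The library labelled DP 4 held T cell, neutrophil and vessel wall genes. T cell genes were above in 14 of 16 in DP 4, against 2.46% of all genes, as many as in DN 1 but at lower levels. The list level was 4.89 in DP 4 and 6.75 in DN 1, against 1.27 to 1.88 in the high libraries. Cd3e stood at 61.1 CPM in DP 4, Lck at 89.4 CPM, Icos at 113 CPM and Pdcd1 at 127 CPM. In the high libraries these 4 were at most 5.57 CPM. B cell genes were above in 3 of 12 only, Cd79a standing at 21.3 CPM in DP 4, and 2 of the 9 cytotoxic and NK genes were, Nkg7 at 59.1 CPM and Gzmb at 23.1 CPM, while Prf1 had 0 counts and Gzma stood at 0.0415 CPM. T cell genes were not confined to the low libraries, since GFP 1 and GFP 2 had list levels of 4.34 and 3.58 and YFP 1 3.27.

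Neutrophil genes were above in 8 of 15 in DP 4, with a pattern of granule genes unlike that of DP 5. All 3 primary granule genes were above. Mpo (myeloperoxidase; chromosome 11, 87793581 to 87804413) reached 425 CPM in DP 4, against 0.749, 2.52, 0.220 and 0 CPM in the high libraries. Elane (neutrophil elastase) reached 156 CPM and Prtn3 (proteinase 3) 83.2 CPM in DP 4, against at most 1.55 and 0.587 CPM in the high libraries. Of the 6 secondary and tertiary granule genes 2 were above in DP 4, Mmp9 and Lcn2, the second at 69.5 CPM, against at most 12.1 CPM in the high libraries. Ngp, Ltf and Camp stood at 2.95, 3.57 and 0.665 CPM in DP 4, against at most 22.5, 8.72 and 4.10 CPM in the high libraries, none above. Retnlg reached 1315 CPM in DP 4, between the other 2 low libraries. Primary granule genes are made early in granulocyte development and secondary ones later.

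Eosinophil genes were above in 3 of 5 in DP 4 and mast cell genes in 0 of 8. Ccr3 stood at 268 CPM in DP 4, against 1.50, 2.20, 3.81 and 3.74 CPM in the high libraries. Siglec5, the older symbol under which the table lists the eosinophil lectin Siglec-F, stood at 94.0 CPM in DP 4, against 3.83, 3.66, 3.44 and 0.587 CPM in the high libraries. Epx was at 0.166 CPM in DP 4 and Il5ra at 28.2 CPM, against at most 0.895 and 6.59 CPM in the high libraries. Cpa3, Cma1 and Tpsb2 were at 0.955, 1.45 and 0.748 CPM in DP 4, within 1 log2 unit of the highest high library. Alox15 reached 825 CPM and Serpinb2 1444 CPM in DP 4, both among its 10 largest differences. Rab44, a GTPase of granulocytes and mast cells, stood at 251 CPM in DP 4, against at most 3.01 CPM in the high libraries.

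Of the 7 libraries, DP 4 had the highest levels of the fibroblast, smooth muscle and endothelial lists, at 8.54, 6.60 and 4.35. Outside the 7, YFP 1 had levels of 8.51, 4.60 and 4.48 in the same order, so that only the smooth muscle level was well above YFP 1. In DP 4 smooth muscle genes were above in 10 of 13 and endothelial genes in 4 of 14. All 13 fibroblast genes exceeded every high library there, 4 of them past the fold. Myh11, the myosin of contractile smooth muscle, stood at 345 CPM in DP 4, against 27.6, 38.4, 29.2 and 5.58 CPM in the high libraries. Acta2 reached 1104 CPM in DP 4 and Col3a1 3552 CPM. Pecam1, an adhesion molecule of endothelium and also of leukocytes, stood at 87.5 CPM in DP 4, against 7.65, 14.7, 8.65 and 5.58 CPM in the high libraries, and Cdh5, the cadherin specific to endothelium, at 6.60 CPM, against 0.367 to 1.95 CPM in the high libraries. Dmp1, a matrix protein of bone, and Igfbp3, a carrier of insulin-like growth factors, stood at 223 and 198 CPM in DP 4, against at most 0.651 and 1.66 CPM in the high libraries and 5.97 and 5.97 CPM in any other of the 18. CD45-positive cells were sorted, and the part that cells of the vessel wall played in these values was not tested.

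MHC class II genes were low in DP 4. Of 10 members 6 were below, against 0.424% of all genes, and 5 with total-count or DESeq2 scaling. H2-Ab1 stood at 578 CPM in DP 4, against 6449, 8208, 5331 and 7213 CPM in the high libraries, and Cd74 at 1414 CPM, against 11337 to 18369.5 CPM in the high libraries. H2-Ab1 was also lower than in DP 5 (3616 CPM) and DN 1 (1897 CPM). The core macrophage level of 8.85 in DP 4 was between those of DP 5 and DN 1. All 12 lay under the lowest high library, none by the fold, with C1qb at 1324 CPM and Csf1r at 1121 CPM in DP 4. Mpeg1, a pore-forming protein of macrophages, stood at 28.5 CPM in DP 4, against 290.1 to 770.3 CPM in the high libraries, and Ch25h, which makes an oxysterol, at 6.48 CPM, against 82.0 to 128 CPM in the high libraries. Lilra5 and Mmp19 were the last of its 10 largest deficits. Resident macrophage genes were higher than in every high library in 7 of 10, among them Cbr2 at 303 CPM and Lyve1 at 227 CPM in DP 4, and 0 passed the fold with TMM, against 2 with DESeq2 scaling and 3 with total-count scaling. The level of this list, 7.96 in DP 4, exceeded that of every YFP library but lay inside the GFP span of 6.591 to 8.495. Cbr2 stood at 132 to 538 CPM in the GFP and 48.4 to 895 CPM in the YFP libraries, so DP 4 was not set apart from those.

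**Figure D4:**
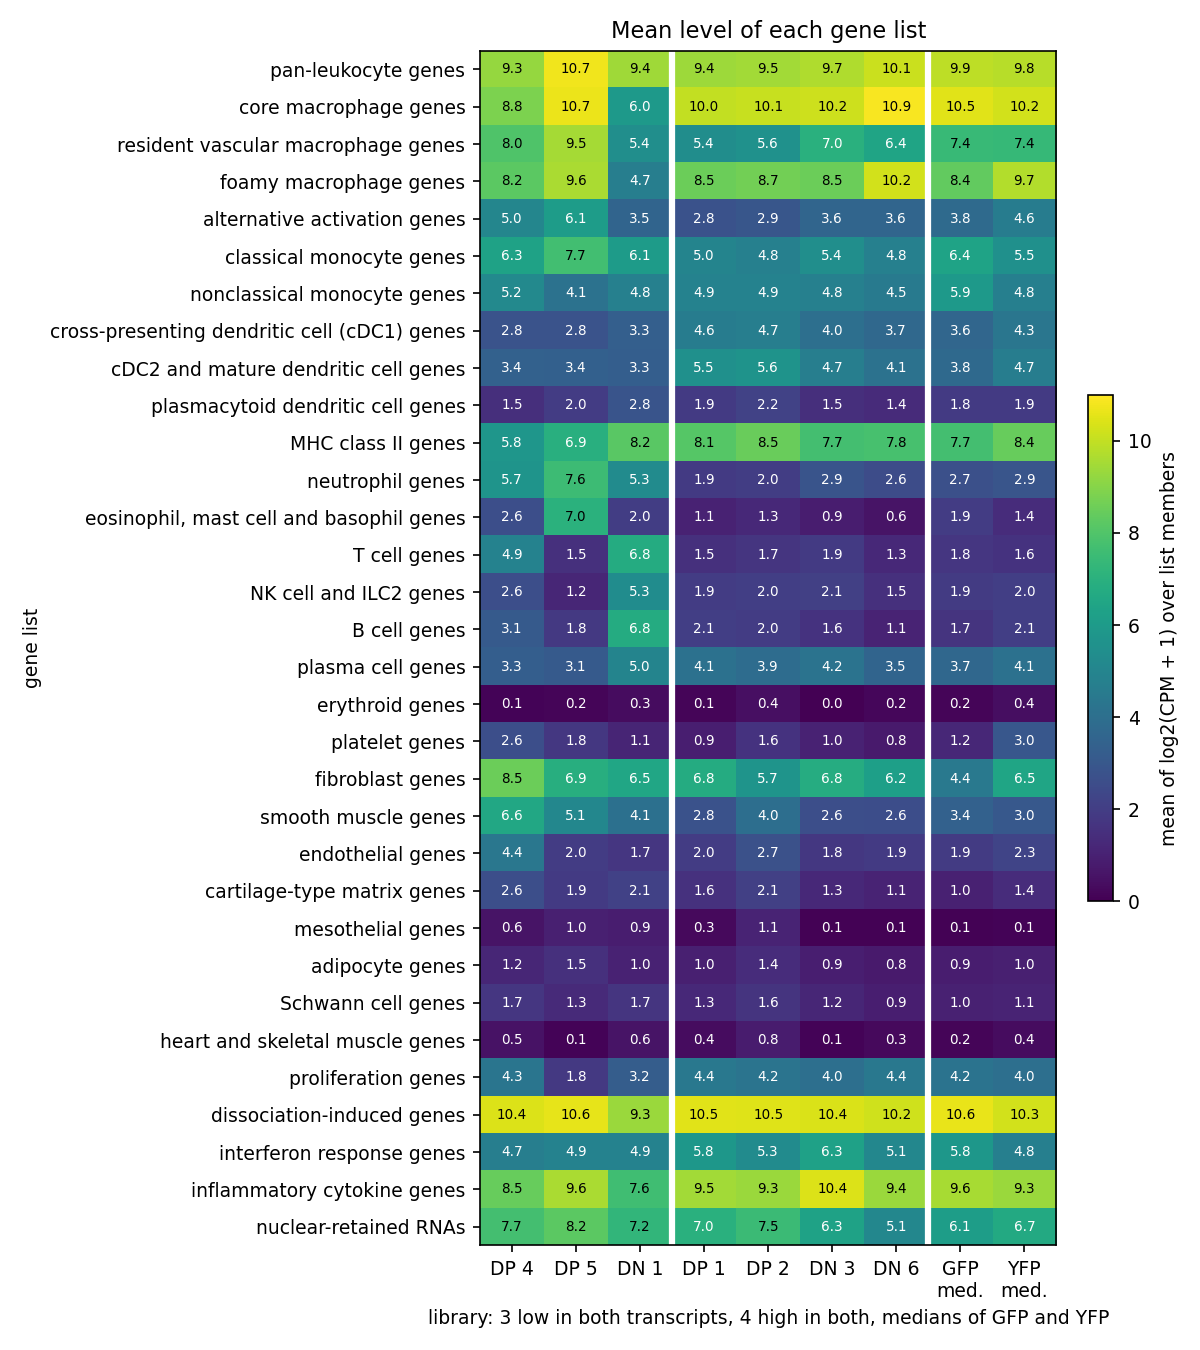
Mean of log2(CPM + 1) over the members of each of the 32 gene lists (rows) in the 3 low libraries, the 4 high libraries and, as medians, the 6 GFP and 5 YFP libraries. T cell, B cell and NK levels are highest in DN 1 (6.75, 6.77 and 5.34), the eosinophil, mast cell and basophil level in the library labelled DP 5 (7.03), and the smooth muscle level in that labelled DP 4 (6.60).

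Over the 32 lists, levels lay above all 4 high libraries in 16 lists in DP 4, 12 in DP 5 and 11 in DN 1, and below all 4 in 9, 8 and 9. The neutrophil level was above in each of the 3, at 5.71 in DP 4, 7.56 in DP 5 and 5.32 in DN 1, against 1.88 to 2.86 in the high libraries, 1.75 to 4.08 in the GFP libraries and 2.18 to 4.78 in the YFP libraries. For DP 5 the eosinophil, mast cell and basophil level of 7.03 compared with 2.65 in DP 4 and 1.98 in DN 1, against 0.57 to 1.28 in the high libraries. The smooth muscle level was above in all 3 as well, at 6.60 in DP 4, 5.07 in DP 5 and 4.08 in DN 1, against 2.62 to 3.98 in the high libraries. It was 2.41 to 4.08 in the GFP libraries and 2.78 to 4.60 in the YFP libraries, so that DN 1 lay within the YFP range. The cDC2 and mature dendritic cell level was below in all 3, at 3.41 in DP 4, 3.35 in DP 5 and 3.29 in DN 1, against 4.13 to 5.63 in the high libraries. GFP libraries spanned 3.23 to 5.38 and YFP libraries 3.82 to 5.82. A level this low was therefore also seen among GFP libraries, which held much Cx3cr1. The classical monocyte level was above in all 3, at 6.34 in DP 4, 7.68 in DP 5 and 6.05 in DN 1. It was 4.78 to 5.42 in the high libraries and 6.25 to 6.69 in the GFP libraries. In the same order the cDC1 level was 2.82, 2.81 and 3.31, below the 3.71 to 4.72 of the high libraries. The interferon response level was 4.69, 4.87 and 4.87, below their 5.10 to 6.30, with YFP libraries at 4.15 to 6.18.

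The order of the libraries by likeness did not follow the sort labels. Over genes, Spearman's rho of log2(CPM + 1) between DP 4 and DN 1 was 0.922, between DP 4 and the high libraries 0.901 to 0.925, and between DN 1 and the high libraries 0.879 to 0.935. Over all 18 libraries, DN 1 was most like GFP 1 at 0.946, GFP 2 at 0.944 and YFP 1 at 0.942. All of these are numbered 1 or 2, as DN 1 is. Olfactory and vomeronasal receptor genes detected were 816 in GFP 1, 1023 in GFP 2 and 1179 in YFP 1, against 1191 in DN 1. The part that the number set played in this likeness was not tested. DP 4 was most like YFP 1, at 0.927. DP 5 was far from all, at 0.790 with DP 4, 0.789 with DN 1 and 0.773 to 0.804 with the high libraries, and pairs of high libraries gave 0.915 to 0.959. These are descriptions across genes, which are not independent replicates. Against high libraries of the same set of numbers alone (1 and 2, or 3 to 6), 831 genes were above and 145 below in DP 4, 1770 and 3330 in DP 5, and 452 and 548 in DN 1. Against those of the other set, which for these libraries are also those of the same sort label, 740 were above and 289 below in DP 4, 2323 and 3785 in DP 5, and 699 and 630 in DN 1.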

How the data were processed

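The members of the low and high sets and the gene lists were chosen with earlier results of these data known. Per the labels' protocols, sorted cells went into Trizol LS, RNA was made into cDNA with SMART-seq v4 (11 cycles) and libraries with Nextera XT. HTSeq 0.7.1, SAMtools, TopHat 1.4.1 and mm10 are named in the submitters' processing notes. No source used here names the strand setting or the annotation, and overlapping, antisense and near-identical genes are uncertain. The authors' deposited values are raw counts of reads for 23337 genes in 18 libraries. No molecular identifiers were used, so intervals cover counting error only.

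Computed here: TMM factors with edgeR 4.0.16 in R 4.3.3 over the 17143 genes that filterByExpr kept, CPM, and log2(CPM + 1) for all 23337 genes. A difference of 2 beyond the range of the 4 high libraries (4-fold) counted a gene, with no test, since the libraries were chosen by measured values. The rule was checked on simulated counts with counting error alone, scaled by total count, in which changes larger than the fold were planted. It found most of them, which does not show how it acts on libraries that differ in make-up. The 32 lists had 347 entries, of which 343 matched. For each low library the 10 largest differences in each direction were named (at least 20 CPM in the low library, or in each high one), with up to 10 shared genes in each direction, up to 4 members per list, any defining marker described, and Cx3cr1, Itgax and Apoe, leaving out predicted genes and antigen receptor segments. Il1f9, Mrgpra2b, Sytl1 and Gm10872, and the splits of lists by granule or cell type, were chosen after values were seen. Some genes that the rule named are not reported here. Coordinates are from GENCODE vM21 and promoters from RefSeq (GRCm38.p6). Alternatives were DESeq2 1.42.0 size factors, total-count scaling, filters, folds, pseudocounts, thinning, and other reference libraries. Python 3.11.15 was used.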

Additional observations from a re-analysis of the deposited data

Results flagged for a closer look

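Within the 4 libraries labelled DP, 99 values (32 list levels and 67 genes) were examined for a library far from the others, meaning that its gap to the nearest exceeded the 95% critical value of Dixon's ratio, which chance alone gives in about 1 of 20 groups. Of these, 18 were such values, 9 with DP 5 as the far library, 8 with DP 4 and 1 with DP 2. Most of the genes examined had been named for their differences of DP 4, DP 5 or DN 1 from a set that holds DP 1 and DP 2, which favours such gaps, so the count is a description and is not to be read against 1 in 20. Groups of 3 libraries such as DN were not examined, and the cause was not tested for any.

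For DP 5 they were the mast cell genes Cma1 (3536 CPM), Tpsb2 (2634 CPM), Cpa3 (2432 CPM) and Mcpt4 (1315 CPM), together with Faim3 (74.03 CPM), Myc (1.173 CPM) and Rasal3 (0.2133 CPM), and the levels of the pan-leukocyte list (10.75) and the proliferation list (1.818). For DP 4 they were Mpo (424.5 CPM), Dmp1 (222.9 CPM), Igfbp3 (197.5 CPM), Elane (156.4 CPM), Mmp12 (167.7 CPM), Ch25h (6.48 CPM) and Lilra5 (5.483 CPM), and the level of the T cell list (4.886). The remaining one was the erythroid list in DP 2, at a level of 0.4467, where these genes are almost uncounted.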

How the results depend on the processing

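No paired analysis was possible because no test between groups was made and each low library stands alone. Of 174 counts recomputed under the alternatives, 112 stayed within 1.5 times the reported one and 62 moved. Counts are given as above then below, for DP 4, DP 5, DN 1 and genes shared by all 3. The reported counts were 574 and 99, 1569 and 3089, 403 and 442, and 55 and 42. At 8-fold they were 148 and 17, 568 and 1778, 207 and 160, and 20 and 5. At 2-fold they were 1554 and 557, 2973 and 4657, 936 and 1252, and 124 and 212. A pseudocount of 5 gave 273 and 44, 1219 and 1386, 258 and 293, and 31 and 23, and one of 0.25 gave 181 below in DP 4. Total-count scaling gave 647 above in DP 5, 665 above and 233 below in DN 1, and 27 shared below. Against the 6 GFP libraries DP 4 had 64 below, DN 1 246 above, and all 3 shared 14 and 21. Against the 5 YFP libraries the counts were 145 and 15, 696 and 1204, 196 and 196, and 11 and 1, and against the 14 other libraries, added after the data were seen, 110 and 10, 604 and 1159, 133 and 157, and 6 and 0. Against high libraries of the other number set, which are those of the same label, DP 4 had 289 below and DN 1 699 above. The filter on low counts, DESeq2 size factors and thinning moved none of these counts past 1.5 times.

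Leaving out each high library in turn gave 601 to 707 above and 103 to 180 below in DP 4, 1587 to 2113 and 3151 to 3543 in DP 5, 418 to 479 and 459 to 518 in DN 1, and 56 to 63 and 44 to 57 shared. The 180 came without DN 6. Leaving out each low library gave 77 to 179 shared above (77 without DP 4, 158 without DP 5, 179 without DN 1) and 59 to 180 shared below (180 without DP 4, 59 without DP 5, 64 without DN 1). Over the libraries left out together, the shared counts ran from 56 to 179 above and 44 to 180 below.

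List levels above and below all high libraries numbered 6 and 13 in DP 5 and 18 and 5 in DN 1 with total-count scaling, and 5 below in DP 5 with a pseudocount of 5. Of 480 list levels 374 moved by less than the spread of the high libraries, 103 moved by more and 3 turned round, all with total-count scaling, namely the difference from the high median of the fibroblast list (-0.35) and the dissociation list (-0.81) in DP 5 and of the endothelial list in DN 1 (0.37). Why the scalings differ was not tested. Depth limits values near 3 counts. DP 5 held under 5 CPM of 65 genes that stood at 50 CPM or more in every other library but YFP 6. Deficits in DP 5 therefore cannot be read as absence.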

Other observations

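Several lists outside the main account gave few members past the fold. In DP 5 the platelet list was above in 1 of 10, Pf4 (platelet factor 4, also made by resident macrophages), which reached 4079 CPM in DP 5, 132 CPM in DP 4 and 27.2 CPM in DN 1, against 24.8, 51.6, 58.3 and 118 CPM in the high libraries. In DP 4 it was also above in 1 of 10, Itga2b, the platelet integrin, at 42.7 CPM, against 0 to 1.63 CPM in the high libraries. Krt18, a keratin, stood at 66.5 CPM in DP 5, against at most 0.660 CPM in the high libraries, while the mesothelial gene Msln stood at 0.427 CPM. Erythroid genes were nearly uncounted in all 3, with list sums of 0.54 CPM in DP 4, 0.96 CPM in DP 5 and 2.38 CPM in DN 1.

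Among monocyte genes, Plac8 stood at 157 CPM in DP 4, 1850.3 CPM in DP 5 and 46.8 CPM in DN 1, against 7.90 to 12.9 CPM in the high libraries. Ly6c2, the Ly6C antigen of classical monocytes, stood at 74.9, 404 and 117 CPM in the same order, against 7.40 to 10.1 CPM in the high libraries. Ccr2, the chemokine receptor of the same cells, stood at 77.6, 145 and 105 CPM, against 116 to 413 CPM in the high libraries. Ly6c2 was above by the fold in all 3, and Plac8 in DP 4 and DP 5 alone. The GFP libraries held 51.7 to 99.6 CPM of Plac8, more than DN 1, and 40.5 to 73.4 CPM of Ly6c2, near DP 4. Genes induced by tissue dissociation had list levels of 10.44 in DP 4, 10.59 in DP 5 and 9.33 in DN 1, against 10.19 to 10.50 in the high libraries. Nr4a1, an immediate early gene that antigen receptors induce in lymphocytes, stood at 2651 CPM in DN 1, against 839.6 to 1521 CPM in the high libraries.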
